A study of Mus musculus with 6 samples.

Results

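The endoplasmic reticulum (ER) folds the proteins that a cell secretes or places in its membranes, and it is also the compartment from which lipid droplets bud. Its lumen holds chaperones such as BiP, lectins that hold newly made glycoproteins, and disulfide isomerases, while sensors in its membrane, among them IRE1 and ATF6, start the unfolded protein response when folding falls behind. In the mouse embryo the 2-cell stage is when most maternal messages are cleared and the embryonic genome is switched on, so an mRNA measured at that stage can be inherited from the oocyte or newly made. Described here are 10 genes of this system, picked by symbol from the 49644 gene identifiers of the count data: the luminal chaperones Hspa5, Hsp90b1 and Dnajb9, the lectin chaperones Calr and Canx, the disulfide isomerases Pdia3 and Pdia4, and the signalling genes Ern1, Atf6 and Xbp1.

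RNA was sequenced from 3 control and 3 delipidated libraries of mouse 2-cell embryos at day 2, each made from 3 pooled embryos of genotype wt and strain F1 (C57Bl/10 X CBA/H). Both groups were cultured in KSOM without fatty acids from 0.5 to 2.0 dpc. The labels print the same treatment and the same protocol of lipid removal under all 6 libraries and separate the groups by the name of their source, so the protocol was read here as that of the delipidated group. By that reading, zygotes of the delipidated group were exposed to cytochalasin B and to hyperosmotic sucrose medium and spun in a centrifuge, and their droplets were taken out by suction through a hole that a laser had made in the zona, so removal of lipid and the handling that goes with it cannot be told apart. By the published methods, embryos of several females were put together and then divided at random between the groups. The 3 pools of a group were divided from 9 embryos drawn at random from that group. They come from a shared collection of embryos and not from separate collections, and p-values measure the spread between these pools.

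Counts assigned to genes came to 12164963, 16165958 and 12980787 in the control libraries and to 20059460, 16332103 and 14683741 in the delipidated libraries, where a read that spans several exonic parts counts in each. Genes with at least 1 count numbered 22855, 22437 and 20582 in the control and 17091, 19408 and 20158 in the delipidated libraries, so every delipidated library held fewer detected genes than every control library. The labelled stage was checked with marker genes. Of 10 genes of 2-cell genome activation, 10 had counts in every library, with summed levels of 326, 147 and 333 CPM (counts scaled to library size and composition) in the control and 235, 298 and 350.4 CPM in the delipidated libraries. Zfp352, their most abundant gene, had counts of 1428, 902 and 1159 in control against 854, 1404 and 2043 in delipidated embryos. Maternal oocyte transcripts were also counted in every library, 10 of 10 of them, and Oosp1 led with between 5590 and 8081 counts, so the libraries hold the mixture of inherited and new RNA that marks the stage.

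In both groups the members of the ER set spanned a wide range of levels, compared here as CPM per kilobase (kb) of summed exonic part length. Calr stood at the top with 236 ± 11.4 CPM per kb (SD, n = 3) in the control and 252 ± 30.2 (SD, n = 3) in the delipidated embryos, above every other member in every library. Its mean level per kb exceeded that of 99.3% of the 16020 genes tested in control embryos. A group of 6 chaperones and isomerases came next. The means in control embryos were 114 ± 30.1 CPM per kb for Pdia3, 112 ± 16.7 for Canx, 111 ± 12.3 for Dnajb9, 96.1 ± 14.4 for Hsp90b1, 83.6 ± 15.6 for Hspa5 and 73.9 ± 15.7 for Pdia4 (SD, n = 3 each). The ranges of neighbours in this group overlapped across the 6 libraries, and among neighbours only Hsp90b1 and Hspa5 kept 1 order within every library, with Hsp90b1 above Hspa5 in 6 of 6.

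The signalling genes lay lower. Ern1 had 26.8 ± 1.33 CPM per kb (SD, n = 3) in control and 23.9 ± 5.14 (SD, n = 3) in delipidated embryos, below Pdia4 in 6 of 6 libraries. Atf6 had 1.07 ± 0.483 CPM per kb (SD, n = 3) in control and 1.62 ± 1.01 (SD, n = 3) in delipidated embryos, and its level per kb was above that of 26.1% of the tested genes in control embryos. Xbp1 was the lowest, at 0.319 ± 0.338 CPM per kb (SD, n = 3) in control embryos and 0 in the delipidated libraries. The ranges over the 6 libraries did not overlap at the steps from Calr to the chaperone group, from that group to Ern1, from Ern1 to Atf6 and, narrowly, from Atf6 to Xbp1. Levels per kb depend on how length is counted and on which parts are read. With each part lengthened by 150 bases, since a read counts in every part it touches, the mean over the 6 libraries went from 244 to 129 CPM per kb for Calr, from 114 to 59.9 for Pdia3, from 98.0 to 46.6 for Hsp90b1 and from 83.7 to 47.0 for Hspa5, which put Hspa5 level with Hsp90b1, while Calr stayed first. Dnajb9 fell least of the chaperone group, from 116 to 93.2, so the lead of Calr over it was smaller. When each gene was read from its most counted part alone, over the length of that part, Canx (953 CPM per kb) came before Calr (680.3), and Xbp1 (0.571) before Atf6 (0.521), while Ern1 stayed in place at 15.6. The chaperone group was then spread from 43.0 for Pdia4 up to Canx, and Dnajb9, at 76.5, moved from rank 2 to rank 6.

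**Figure D1:**
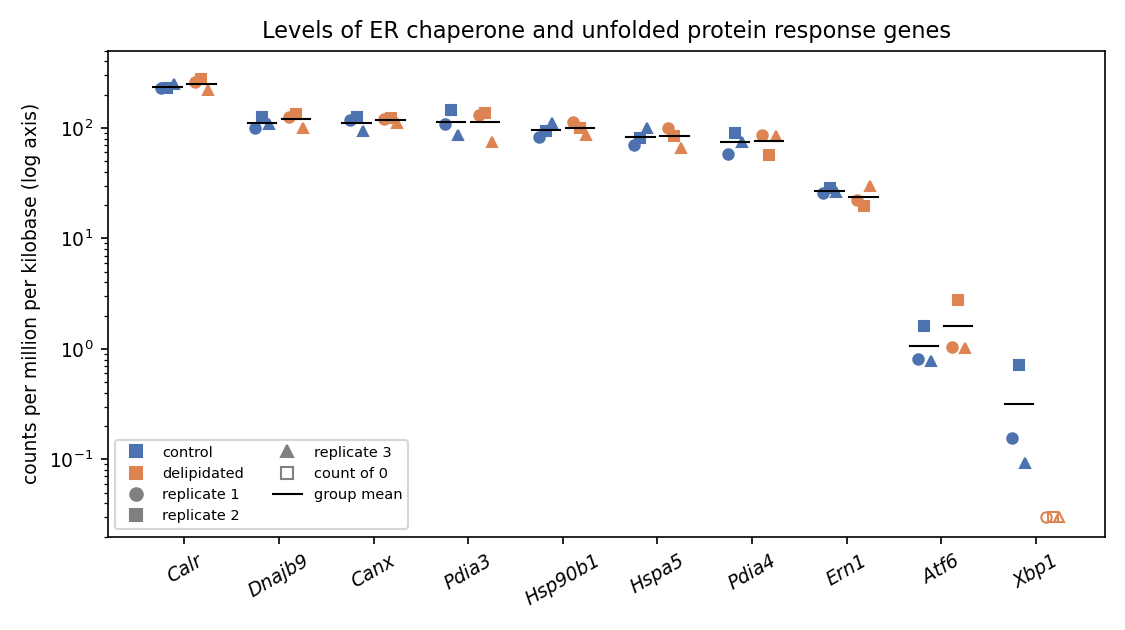
Level of each gene in CPM per kb on a log axis, with blue points for the 3 control and orange points for the 3 delipidated libraries, a symbol for each replicate and a line at each group mean; open symbols at the bottom mark a count of 0. Calr lies above the other genes at 219 to 278 CPM per kb, and Xbp1 is counted in the control libraries alone.

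The comparison between the groups asks whether removing lipid droplets at the zygote stage came with other mRNA levels a day later. Of the 10 genes, 9 passed the filter on low counts and were tested with edgeR's quasi-likelihood test, and Xbp1 was removed by it. No member was called at an adjusted p under 0.05 and a log2 fold change beyond 1 (0 of 9 higher and 0 of 9 lower), beside 0% of the 16020 genes tested called higher and 0% called lower. An unadjusted p under 0.05 was found for 0 of the 9 members and for 463 genes in all, which is 2.89% of those tested. DESeq2's Wald test with no filter on low counts before the fit called 9 genes higher and 40 lower. In edgeR with no filter 5 and 25 were called, and in limma-voom 0 and 0. None of these calls was a member. The 3 delipidated libraries lay all above the 3 control libraries for 0 of the 9 tested members, beside 3.81% of all genes tested, and all below them for 0 of 9, beside 5.05%. Bulk libraries such as these cannot separate a smaller number of cells holding a transcript from less RNA in each cell.

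The log2 fold change was positive for 8 of the 9 tested members and negative for 1, with a median of 0.053, beside 50.0% positive and a median of -0.0007 over all genes tested. The median size of the change, regardless of sign, was 0.083 for the members and 0.34 for all genes, and the median standard errors were 0.21 and 0.59. The count of positive values does not hold up: it was 4 of 9 without control replicate 1, 4 without delipidated replicate 1, 5 without delipidated replicate 2, and 4 when the part with most counts stood in for each gene. The adjusted p of every tested member was 1.00.

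Hspa5 encodes BiP, the Hsp70 chaperone of the ER lumen, which also keeps the stress sensors inactive while folding is in balance. The gene, ENSMUSG00000026864, lies on the forward strand at chr2:34771970-34777547 of GRCm38 and is covered by 22 exonic parts. Its level was 296, 339.5 and 426 CPM in the control libraries and 423, 359.7 and 281 CPM in the delipidated libraries. The highest control and the highest delipidated library were nearly level, the lowest of the 6 was a delipidated library, and the groups overlapped fully. The group means were 354 ± 66.0 and 354 ± 71.1 CPM (SD, n = 3 each), and the log2 fold change was 0.0029 (standard error, SE, 0.21), with a 95% interval from -0.47 to 0.47. In linear terms the interval spans 0.724-fold to 1.39-fold, so a change to 2-fold in either direction lies outside it, whereas changes within it were not resolved. Without control replicate 1 the value was -0.099, and without delipidated replicate 1 it was -0.14. Its counts lay almost entirely on coding parts (91.7%), and its last part, at chr2:34776532-34777547, was at 0 in all 6 libraries, which lowers its level per kb.

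Hsp90b1 encodes GRP94, the Hsp90 chaperone of the ER (ENSMUSG00000020048, reverse strand, chr10:86690209-86705509). It was measured at 315, 360.2 and 425 CPM in control and at 431, 381 and 329.5 CPM in delipidated embryos. Control replicate 3 and delipidated replicate 1 were the high libraries, as they were for Hspa5. The log2 fold change was 0.053 (SE 0.19), and -0.045 without delipidated replicate 1. All of its 32 parts carry an identifier joined with those of 2 other genes. Of these, 28 were assigned to Hsp90b1 and 4 were left out, among them coding parts with 296 to 548 and 137 to 388 counts a library, and 15.1% of its counts lie on parts that overlap the opposite strand.

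Dnajb9 encodes ERdj4, a J-domain partner that sends misfolded proteins to BiP and helps BiP bind IRE1 (ENSMUSG00000014905, reverse strand, chr12:44205559-44210326). The control libraries had 187.5, 232.5 and 203 CPM and the delipidated libraries 234, 252 and 185.5 CPM. The lowest value and the 2 highest values came from delipidated libraries. Between the groups the log2 fold change was 0.11 (SE 0.21), with a 95% interval from -0.34 to 0.56, and -0.017 from its most counted part alone.

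Calreticulin and calnexin are the lectin chaperones, soluble in the lumen and anchored in the membrane respectively, and they bind glycoproteins that still carry a terminal glucose. Calr (ENSMUSG00000003814, reverse strand, chr8:84841850-84846934) had 661, 658 and 716 CPM in the control and 745, 799.7 and 629 CPM in the delipidated libraries. It varied least of the members, with a highest value 1.27 times the lowest, and the delipidated libraries held both the highest and the lowest value. The log2 fold change was 0.096 (SE 0.16), with a 95% interval from -0.26 to 0.45. Canx (ENSMUSG00000020368, reverse strand, chr11:50293961-50325673) had 551, 587 and 437 CPM in the control and 561, 583 and 525 CPM in the delipidated libraries. Control replicate 3 was low and the other libraries were close together. Its log2 fold change was 0.083 (SE 0.175), and -0.035 without control replicate 3.

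Pdia3 encodes ERp57, the disulfide isomerase that works on glycoproteins held by calnexin and calreticulin (ENSMUSG00000027248, forward strand, chr2:121413775-121438687). It was at 341, 460.4 and 274 CPM in control and at 415, 427 and 236 CPM in delipidated embryos. Replicate 3 of each group was low, and the highest value was 1.95 times the lowest, a wider spread within the groups than between their means of 358 ± 94.5 and 359 ± 107 CPM (SD, n = 3 each). Delipidated over control, the log2 fold change was 0.0036 (SE 0.26), and it ran from -0.16 to 0.23 when single libraries were left out. Pdia4 encodes ERp72, an isomerase with more thioredoxin-like domains than Pdia3 (ENSMUSG00000025823, reverse strand, chr6:47796141-47813430). It had 139, 213.5 and 177 CPM in the control and 205, 137 and 202 CPM in the delipidated libraries. A low library was found in each group, control replicate 1 and delipidated replicate 2, and the log2 fold change was 0.039 (SE 0.24), or -0.096 without control replicate 1. All 14 parts of Pdia4 carry a joined identifier, and 12 were assigned to it.

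Ern1 encodes IRE1α, the kinase and endoribonuclease that cuts the Xbp1 mRNA during ER stress (ENSMUSG00000020715, reverse strand, chr11:106394650-106487852). Its level was 213, 232 and 213 CPM in control embryos and 182, 161 and 242 CPM in delipidated embryos. The control libraries were close together, and of the delipidated libraries 2 lay below and 1 above all of them. It was the 1 tested member with a negative log2 fold change, -0.17 (SE 0.21), with a 95% interval from -0.63 to 0.30. The sign was the same in each fit that left out a library, with values between -0.36 and -0.047, and its most counted part alone gave -0.50. Counts were spread along the gene, on 27 to 30 of its 31 parts in every library.

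Atf6 encodes the sensor that is cut in the Golgi to release a transcription factor (ENSMUSG00000026663, reverse strand, chr1:170704674-170867771). It had counts of 88, 248 and 94 in control against 195, 418 and 134 in delipidated embryos, or 7.425, 15.0 and 7.145 CPM against 9.63, 25.7 and 9.46 CPM. Replicate 2 of each group was the high library, and control replicate 2 exceeded delipidated replicates 1 and 3. The log2 fold change was 0.60 (SE 0.56), and its unadjusted p of 0.313 (edgeR, quasi-likelihood) was the smallest among the members. It rested on delipidated replicate 2, since without that library the log2 fold change was -0.049, and with the part that has most counts it was -0.24. In delipidated replicate 1, 108 of the 195 counts fell on the part at the end of the gene, at chr1:170704674-170710087, and 6 of its 18 parts had counts, against 15 parts in delipidated replicate 2.

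Xbp1 encodes the transcription factor that IRE1 activates by unconventional splicing of its mRNA (ENSMUSG00000020484, forward strand, chr11:5520659-5525893). It had counts of 6, 38 and 4 in control embryos and of 0 in all 3 delipidated libraries, on 3, 4 and 1 of its 11 parts in the control libraries. Fewer genes were detected in every delipidated library, as given above, and the part of this in the zeros of Xbp1 was not tested. The groups did not overlap, as for 5.05% of the tested genes with lower delipidated libraries, and the gene is outside those tested. In control replicate 2, adjacent parts at chr11:5524385-5524684 and chr11:5524685-5524943 had 17 counts each, and a read that spans both is counted in both. The part with most counts in each control library (3, 17 and 4 counts) was taken at face value. A count of 0 was allowed 3 counts per library. On these terms Xbp1 was at least 2.91-fold lower in delipidated embryos. Without control replicate 2 the bound was 1.54-fold. These bounds cover the counting error of the zeros alone, and not that of the few control counts. They take each count as a separate molecule. With no filter, the adjusted p for Xbp1 was 0.379 with DESeq2 and 0.718 with edgeR. The bases that IRE1 removes lie inside an exonic part and have no part of their own, so counts of spliced and unspliced mRNA could not be formed.

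**Figure D2:**
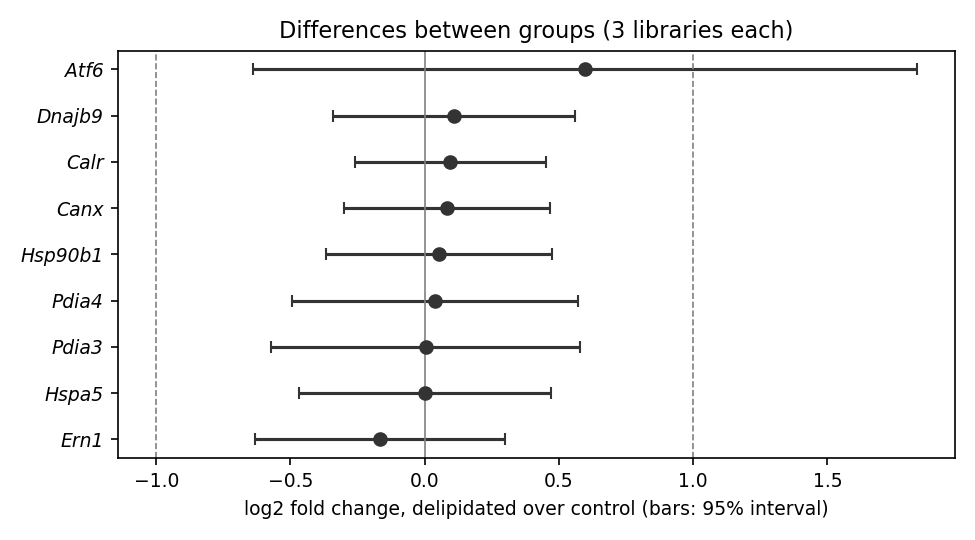
Log2 fold change of the 9 tested genes between delipidated and control embryos, with 95% intervals from edgeR's fit over 3 libraries a group; dashed lines mark the thresholds of 1 and -1. The intervals include 0 for each gene, and that of Atf6, from -0.64 to 1.83, is the widest.

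How the members varied together was described over the 6 libraries as correlations of log2 CPM between 8 of them, without Xbp1 and Atf6, whose counts are few. Of 28 pairs, 17 had a positive Pearson's r, and the median r was 0.194. The values share library scaling and depth, and the extremes are picked from 28 pairs. The pair with the highest r was Hspa5 and Hsp90b1 (r = 0.977), whose libraries stood in the same order within each group. The most negative value was that of Ern1 and Calr (r = -0.955): delipidated replicate 2 had the highest Calr and the lowest Ern1 level, and delipidated replicate 3 the reverse. Dnajb9 varied with Pdia3 (r = 0.832) and Calr (r = 0.758).

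Added up, the 10 genes came to 2710, 3100 and 2878 CPM in the control and to 3207, 3125 and 2639 CPM in the delipidated libraries. The means were 2896 ± 195 and 2990 ± 307 CPM (SD, n = 3 each), a difference smaller than either spread. Among 8115 other tested genes with a mean of at least 10 CPM, those whose log2 CPM followed this sum most closely over the 6 libraries were Obox8 (r = 0.994), Aars (r = 0.990), Rpl14 (r = 0.989), Exoc7 (r = 0.9885) and Rps24 (r = 0.986). Obox8, a homeobox gene of the oocyte and early embryo, was at 42.7, 83.2 and 51.6 CPM in the control and at 98.7, 90.0 and 36.5 CPM in the delipidated libraries, with delipidated replicate 3 the lowest for both it and the sum. These 5 are the top of 8115 genes compared over 6 libraries, where values of r this high can arise from the choice alone, so no link to the ER genes is drawn.

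Beyond the 10 genes, 108 other genes of ER folding and quality control were followed in 7 lists, and 99 of them passed the filter. Of these, 0 were called higher and 0 lower by edgeR, and an unadjusted p under 0.05 was found for 1 with a higher and 4 with a lower level in delipidated embryos, 5.05% of the 99, beside 2.89% of all genes tested. Spcs3, the higher gene, and Fkbp10, among the lower, passed the filter through the group where each was high. Their part of this count supports no conclusion. The log2 fold change was positive for 36 (36.4%) and negative for 63, with a median of -0.11, beside 50.0% positive and a median of -0.0007 over all genes tested. The delipidated libraries lay all above the control libraries for 2 genes (2.02%, beside 3.81% of all genes) and all below for 7 genes (7.07%, beside 5.05%). Spcs3 is among the 2, and Fkbp10 is among the 7. So is Ern2, with counts of 12, 42 and 16 in control against 6, 15 and 0 in delipidated embryos. Each passed the filter through the group where it was high, so their part of these counts supports no conclusion either.

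In the list of unfolded protein response signalling, 15 of 16 genes were tested, 4 with a positive and 11 with a negative log2 fold change and a median of -0.093. Creb3, a membrane-bound transcription factor related to ATF6, had counts of 82, 205 and 390 in control against 114, 48 and 113 in delipidated embryos. The groups overlapped, the log2 fold change was -1.56 (SE 0.64, edgeR, unadjusted p = 0.0323, adjusted p = 1.00), and it was -0.81 without control replicate 3. Wfs1, the ER membrane protein wolframin, was next in order of p, with a log2 fold change of 0.84 (SE 0.52), and 0.445 without delipidated replicate 3 or 1.45 without control replicate 1. Ppp1r15a, the phosphatase subunit GADD34 that lifts the translation block of the response, was the most abundant gene of the list at a mean of 336 CPM.

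The Hsp70 cycle of the ER lumen held 12 tested genes of 12, 4 of them positive and 8 negative, with a median of -0.059. Hyou1, a nucleotide exchange factor for BiP and the most abundant of the list, had counts of 2156, 3984 and 3342 in control against 2125, 3111 and 2391 in delipidated embryos. Its level was 226 ± 38.4 CPM in control and 155 ± 44.7 CPM (SD, n = 3 each) in delipidated embryos, with overlapping groups and a log2 fold change of -0.54 (SE 0.26, edgeR, unadjusted p = 0.057, adjusted p = 1.00). It was -0.325 without delipidated replicate 1 and -0.23 from its most counted part alone. Sil1, another exchange factor for BiP, had a log2 fold change of -0.59 (SE 0.83), which ran from -1.78 without delipidated replicate 1 to -0.15 without delipidated replicate 3 and was -1.06 with the replicate block. In the lectin cycle 10 of 10 genes were tested, 3 positive and 7 negative, with a median of -0.52. Calr3, a calreticulin known from the testis, had a log2 fold change of -0.99 (SE 0.55), and Uggt1, the glucosyltransferase that returns unfolded glycoproteins to the lectins, had -0.53 (SE 0.36). Left-out libraries moved Calr3 to -0.56 (control replicate 1) and Uggt1 to -0.16 (control replicate 2). Calr4 was the most abundant of that list, at a mean of 108 CPM.

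Among the protein disulfide isomerases and oxidation genes, 17 of 20 were tested, 6 positive and 11 negative, with a median of -0.17. Ero1a, the oxidase that recharges protein disulfide isomerase, had counts of 207, 196 and 649 in control against 188, 121 and 162 in delipidated embryos. Scaled to the library, each delipidated value lay below each control value, and control replicate 3 stood well above the rest. Between the groups the log2 fold change was -1.48 (SE 0.55, edgeR, unadjusted p = 0.0205, adjusted p = 1.00), and -0.64 without control replicate 3. Tmx3, a membrane-bound isomerase, was lower with a narrow gap, 16.7 CPM in the lowest control against 16.5 in the highest delipidated library, and a log2 fold change of -1.09 (SE 0.52), which ran from -1.68 without delipidated replicate 1 to -0.76 without delipidated replicate 2. P4hb, the classical protein disulfide isomerase, was the most abundant gene of the list at a mean of 367 CPM, with a log2 fold change of -0.13 (SE 0.18).

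The prolyl isomerases of the ER were few and low: 5 of 7 were tested, 1 positive and 4 negative, with a median of -0.83. That median is the value of Ppib itself, so setting Fkbp10 at its bound could not move it. Fkbp10, which assists collagen folding, had counts of 8, 46 and 32 in control embryos and of 0 in all 3 delipidated libraries. The part with most counts in each control library (2, 15 and 12 counts) was again taken at face value. With 3 counts allowed per library for a count of 0, Fkbp10 was at least 3.65-fold lower. That bound covers the counting error of the zeros alone, and not that of the control counts. It takes no account of amplification or of the fewer genes detected in the delipidated libraries. Without control replicate 3 the bound was 2.97-fold. Its unadjusted p from edgeR was 0.00438 and its adjusted p 1.00, and DESeq2's Wald test with no filter gave an adjusted p of 0.0464, the lowest of a range up to 1.00 over the alternatives. Fkbp10 passed the filter through the control libraries alone, where it was high, so its p from edgeR supports no conclusion. DESeq2's default filter on mean count still acted on its adjusted p. That value, of a gene counted in the control libraries alone, supports no conclusion either. Ppib, cyclophilin B, had counts of 502, 517 and 384 in control against 435, 250 and 299 in delipidated embryos, which did not overlap once scaled. Its log2 fold change was -0.83 (SE 0.36, edgeR, unadjusted p = 0.0402, adjusted p = 1.00), and 58.1% of its counts lie on exonic stretches shared with a gene read from the other strand. Without parts that overlap the opposite strand the value was -1.16, and from the most counted part alone it was -0.54.

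Markers of stromal cells, which make much collagen, were read beside these genes. Of 8 such markers 5 were tested, and 5 of them had a negative log2 fold change. An unadjusted p under 0.05 (edgeR) was found for 3 of the 5 (60.0%), beside 2.89% of all genes tested. These 3, Vim, Col1a1 and Sparc, passed the filter through the control libraries, where they were high, so this count supports no conclusion. Their summed level was 26.0, 20.6 and 54.35 CPM in the control and 1.93, 3.99 and 6.35 CPM in the delipidated libraries. Vim, the most abundant, had 152, 145 and 300 counts in the control libraries, Col1a1 had 11, 26 and 42, and both had 0 in each delipidated library. Others were counted there: Sparc had 91, 31 and 335 against 0, 8 and 32 counts, Pdgfra 30, 83 and 21 against 39, 57 and 4, and Col1a2 14, 48 and 15 against 0, 0 and 27. Dcn had 27 counts in delipidated replicate 3 and 0 elsewhere. The part of such cells in the values of Fkbp10, Ppib and the other genes named above was not tested. Of 12 cumulus and granulosa markers 4 were tested, 2 with a positive and 2 with a negative log2 fold change, and 0 had an unadjusted p under 0.05. Their sums were 20.25, 28.5 and 82.3 CPM in the control and 11.3, 33.2 and 18.4 CPM in the delipidated libraries, Amhr2 was the most abundant, and Ptx3 and Foxl2 were at 0 in all 6 libraries. Cyp11a1, which did not pass the filter, had 4, 0 and 653 counts in the control and 0 in all delipidated libraries. It made up 49.6 CPM of the sum in control replicate 3. Tnfaip6 had 9, 44 and 86 against 17, 110 and 49 counts, and Cyp19a1 had 38, 16 and 30 against 0, 19 and 77. Control replicate 3 is also a library without which the fold changes of Creb3, Ero1a and Ufd1 were smaller. Other libraries had this effect too: Ufd1 was at -0.58 without delipidated replicate 1. Without delipidated replicate 2, Creb3 was at -1.26 and Ero1a at -1.34. The published methods state that cumulus cells were stripped from the zygotes with hyaluronidase, and whether any remained was not tested. Of 8 leukocyte markers, 4 were tested with 0 under that p, with sums of 13.75, 9.19 and 13.1 CPM against 2.765, 9.03 and 10.5 CPM and Coro1a the most abundant. Of 7 markers of oviduct epithelium, 5 were tested with 0 under that p, with sums of 91.6, 250.0 and 124 CPM in the control and 175, 205 and 114 CPM in the delipidated libraries, most of it Epcam, which oocytes and embryos express as well.

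In ER-associated degradation, 23 of 24 genes were tested, 13 positive and 10 negative, with a median of 0.024. Sel1l, the scaffold of the ubiquitin ligase that extracts misfolded proteins, had 95.4 ± 21.7 CPM in control and 65.0 ± 9.29 CPM (SD, n = 3 each) in delipidated embryos. The groups were apart only narrowly, with 70.9 CPM in the lowest control and 70.8 in the highest delipidated library. The log2 fold change was -0.55 (SE 0.27, edgeR, unadjusted p = 0.0642, adjusted p = 1.00), and 0.029 with the part that has most counts. Ufd1, a partner of the ATPase VCP in that extraction, had a log2 fold change of -0.94 (SE 0.53), and -0.39 without control replicate 3. Herpud1, a target of the response in many cells and singled out after its values were seen, had 2, 0 and 2 counts in the control and 0 in each delipidated library, which is under the limit that a count of 0 allows, so no difference could be read from it.

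Of the translocon and signal peptide genes, 17 of 19 were tested, 5 positive and 12 negative, with a median of -0.14. Spcs3, a subunit of the signal peptidase, had counts of 4, 4 and 8 in control against 67, 88 and 36 in delipidated embryos. The delipidated libraries were all higher, with counts on 4, 5 and 3 of its 5 parts against 1 part in each control library. Delipidated over control, the log2 fold change was 3.22 (SE 1.12, edgeR, unadjusted p = 0.0146, adjusted p = 1.00), and 2.07 from its most counted part alone. Spcs3 passed the filter through the delipidated libraries, where it was high, so its p supports no conclusion. Ssr1, a subunit of the translocon-associated complex, was also higher without overlap, at 17.3 ± 2.61 CPM in control and 27.6 ± 9.44 CPM (SD, n = 3 each) in delipidated embryos, with a log2 fold change of 0.67 (SE 0.39), and 0.36 without delipidated replicate 2.

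Promoters of the members were searched for the elements through which the unfolded protein response acts, on both strands. RefSeq promoters of GRCm38.p6, 250 bases before to 50 after the start of transcription, were found for 9 of the 10 members, with no entry for Atf6. The ER stress response element (ERSE) was taken as CCAAT, any 9 bases, and CCACG. It was found in 39 of 32851 promoters (0.119%), and in those of 4 members, Hspa5, Hsp90b1, Calr and Canx. The element was first defined in chaperone genes of this kind, so its presence there is background and not a result of these libraries. The related ERSE-II (ATTGG, any base, CCACG) was in 12 promoters (0.0365%) and the UPR element TGACGTGG in 222 promoters (0.676%), each in 0 of the 9 member promoters. A match says nothing of whether a factor binds.

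The stretches that hold the matches are shown so that spacing and strand can be compared, 5′ to 3′ on the strand of the gene, with the ERSE in capitals. Hsp90b1 has 1 match on each strand, the match of Calr reads on the other strand, and the start of the match lies 65 bases before the transcription start in Hspa5, 212 and 107 in Hsp90b1, 162 in Calr and 145 in Canx. They lie at chr2:34772020-34772049 (Hspa5, forward strand, inside an exon annotated upstream of the RefSeq start), chr10:86705510-86705694 (Hsp90b1, reverse strand), chr8:84846935-84847181 (Calr, reverse strand) and chr11:50325674-50325923 (Canx, reverse strand).
Hspa5: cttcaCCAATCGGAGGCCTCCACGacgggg
Hsp90b1: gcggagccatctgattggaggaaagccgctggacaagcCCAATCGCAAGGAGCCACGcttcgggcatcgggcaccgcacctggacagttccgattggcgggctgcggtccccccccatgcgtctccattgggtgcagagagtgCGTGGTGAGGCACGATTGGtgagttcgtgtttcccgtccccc
Calr: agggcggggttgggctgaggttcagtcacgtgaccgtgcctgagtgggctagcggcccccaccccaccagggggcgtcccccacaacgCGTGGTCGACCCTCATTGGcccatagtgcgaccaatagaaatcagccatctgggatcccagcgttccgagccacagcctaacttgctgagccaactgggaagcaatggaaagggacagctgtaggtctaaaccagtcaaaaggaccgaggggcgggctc
Canx: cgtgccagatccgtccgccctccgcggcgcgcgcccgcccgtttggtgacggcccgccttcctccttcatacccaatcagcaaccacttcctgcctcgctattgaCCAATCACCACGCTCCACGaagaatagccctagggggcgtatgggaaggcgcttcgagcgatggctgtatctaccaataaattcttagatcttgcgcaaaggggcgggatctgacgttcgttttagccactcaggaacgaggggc

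**Figure D3:**
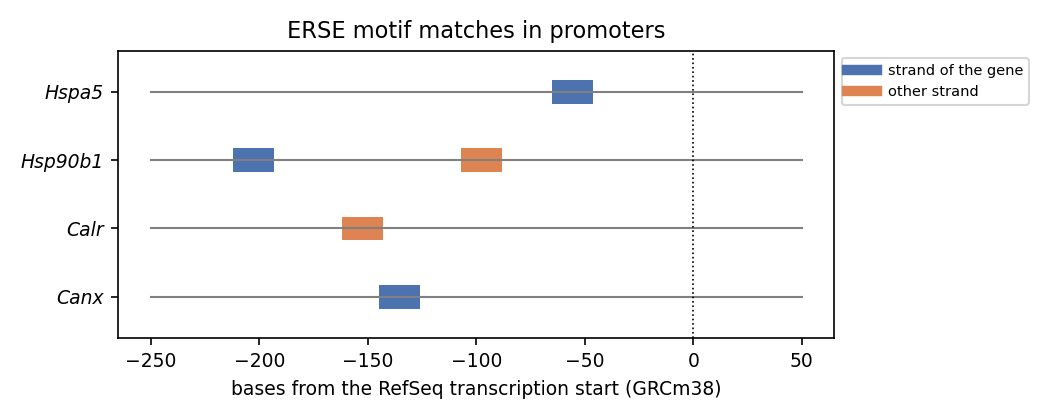
Position of the ERSE matches in the promoters of 4 genes, in bases from the RefSeq transcription start; blue bars read on the strand of the gene and orange bars on the other strand, and grey lines span the 300 bases searched. Hsp90b1 has a match on each strand, and the match of Hspa5 is the closest to the start.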

How the data were processed

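The authors deposited raw counts per exonic part for 6 libraries of 3 embryos each, made per the labels with bcl2fastq 2.20, Trimmomatic 0.36, STAR 2.5.2b and featureCounts on mm10. From the 425461 parts, counts were summed per gene. Of 33309 parts under joined identifiers, 27968 were assigned to the 1 gene whose GENCODE M21 exons they overlap, and the others, 2.49% to 2.57% of counts, were left out. A read that spans parts counts in each.

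Genes were filtered with filterByExpr (minimum count 10), scaled by TMM and tested with edgeR 4.0.16 in R 4.3.3, by the quasi-likelihood test with Benjamini-Hochberg adjustment over 16020 genes. A gene was called at an adjusted p under 0.05 and a log2 fold change beyond 1 or -1. The common biological coefficient of variation was 0.663. CPM are counts over the scaled library size. The script of the fits was tested on simulated data.

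The members, 7 lists of other ER genes (unfolded protein response signalling, Hsp70 cycle, lectin cycle, disulfide isomerases and oxidation, prolyl isomerases, ER-associated degradation, translocon and signal peptide handling) and 6 marker lists (2-cell genome activation, maternal oocyte transcripts, cumulus and granulosa cells, leukocytes, stromal cells, oviduct epithelium) were chosen with earlier results of these data known. Named genes are the members, the called genes of each ER list or otherwise the 2 with the smallest unadjusted p, and the 5 genes most correlated with the members' sum. The most abundant gene of a list, the marker genes, Herpud1 and Ern2 were named after their values were seen. Alternatives were DESeq2 1.42.0 with no filter, edgeR with DESeq2 size factors, with every counted gene or with genes averaging 50 counts or more, limma-voom (limma 3.58.1), the replicate number as a block, each library left out, joined parts left out, the part with most counts, parts on overlapping opposite strands left out, library sizes without mitochondrial genes, and adjusted p alone. For DESeq2, no filter means none before the fit, and its default filter on mean count still acted on the adjusted p. Promoters from RefSeq (GRCm38.p6) were searched with Python 3.11.15, pandas 2.3.3 and numpy 2.4.6.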

Additional observations from a re-analysis of the deposited data

How the results depend on the processing

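With 3 libraries a group, the depth and the spread between pools limit what could be detected, and a change smaller than the interval of a gene was not resolved. Genes called higher numbered 9 with DESeq2 and no filter and 5 with edgeR and no filter, genes called lower 40 and 25, and 0 under every other alternative. Fkbp10 was past the thresholds with DESeq2 and no filter alone. Over 142 alternatives of the fold changes of the 9 tested members, 120 kept the sign and 22 did not, and adjusted p ran from 0.784 to 1.00. Xbp1 was not among these, and its adjusted p with no filter is given above. For the 14 other genes 218 of 219 kept it. With the part that has most counts, 4 members were positive, and log2 fold changes were -0.099 for Hspa5, -0.017 for Dnajb9, -0.24 for Atf6, -0.064 for Pdia3 and 0.029 for Sel1l. Pdia3 was at -0.0013 with no filter, -0.0071 with limma-voom and -0.013 with the replicate block. Without 1 replicate in turn, 4 to 7 members were positive, and values ran from -0.14 to 0.16 for Hspa5, -0.045 to 0.17 for Hsp90b1, -0.049 to 1.04 for Atf6, -0.035 to 0.17 for Canx, -0.16 to 0.23 for Pdia3 and -0.096 to 0.21 for Pdia4. The cause was not tested. Of the 99 other ER genes, 36 were positive, 33 to 40 without 1 replicate in turn and 31 to 37 under the remaining alternatives, which were chosen for this count after the data were seen. Some of these fits held fewer genes, down to 91, and the share that was positive ran from 31.3% to 40.8%. The replicate block left 0 genes called higher, 0 called lower and 7 members positive. Deviations of same-numbered libraries from their group means correlated at -0.17, 0.152 and 0.09, and not every library correlated best with its own number. Deviations from a mean of 3 libraries are tied to each other, so these values cannot decide whether the numbers pair the samples. With joined parts left out, Hsp90b1 and Pdia4 have no counts and no value, and Fkbp10 has no value where it fell under the filter. The alternative on neighbouring Xbp1 parts was not run, since no part isolates the intron.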
